A study of Caenorhabditis elegans with 2 samples.

Results

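Binding of SEM-4 was examined at 45 genes of muscle structure, out of 19973 protein-coding genes of Caenorhabditis elegans. The 45 genes form a list of sarcomere and attachment genes, and by what they encode they are the myogenic factor hlh-1, 9 thick filament genes, 17 thin filament genes, 5 genes of giant or immunoglobulin-domain proteins, 11 genes of the dense bodies and M-lines, and 2 genes of the matrix and the membrane. They lie on 6 chromosomes, with 14 on X, 11 on V, 9 on I, 5 on III, 3 on II and 3 on IV. SEM-4 is a Spalt-type zinc-finger protein that regulates transcription, and it was measured by chromatin immunoprecipitation and sequencing (ChIP-seq) against an eGFP-tagged protein. The animals were whole L2 larvae of strain OP57 (unc-119(ed3) III; wgIs57), an insertion line with sem-4 as its target, pooled male and female; the labels give the age as unknown. There was 1 group with 2 biological replicates, so no condition was compared, and every statement sets the muscle genes beside all protein-coding genes in the same animals. All cells of a larva contributed to each library, so a peak cannot be assigned to muscle or to any other cell type. The lists hold no expression values, and the activity of the 45 genes in these larvae was not measured.

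Body wall muscle of the worm is built of thick filaments of myosin and paramyosin and thin filaments of actin, tropomyosin and troponin. Thin filaments are anchored in dense bodies and thick filaments in M-lines, and both are tied through integrin to the basement membrane. SEM-4 is named for the sex muscle defects of its mutants and is known to act in the postembryonic mesoderm as well as in neurons and vulval cells.

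Peaks were the authors' own. A peak was placed by its summit, the position of its highest point, and the promoter window of a gene covered 1000 bp before and 200 bp after each of its annotated transcript starts. The pooled relaxed list held the 30000 peaks called on both replicates together. It was deposited under the name of peaks and background, so it includes background by design. Each replicate had its own list of 30000 peaks, and the thresholded list, called reproducible here, held 2490 peaks. Those 2490 were exactly the pooled peaks of highest signal, with a lowest signal of 40.3 and a median of 57.7, against a median of 13 in the whole pooled list. Signal is the authors' enrichment value of a peak and serves here only to order and describe the peaks of 1 list. Read depth is unknown, since the deposited lists carry no counts, and no counting error is therefore given.

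Most muscle genes had a relaxed SEM-4 summit near a start, and few had a reproducible one. A pooled relaxed summit lay in the window of 34 of the 45 muscle genes (75.6%), against 38.4% of all protein-coding genes. The −log10 of the q-value, higher for a surer peak, ran from 0.174 at unc-87 to 3.7 for the strongest of each gene. All muscle genes with a reproducible window summit shared the value of 3.7, so it does not rank them. At unc-54 the −log10 of the q-value was 0.837 and at atn-1 0.555, so a relaxed summit alone does not show binding. A reproducible summit lay in the window of 6 muscle genes (13.3%), against 8.71% of all protein-coding genes. Among genes with any pooled window summit, the window also held a reproducible one for 6 of 34 muscle genes (17.6%), against 22.7% of all such genes. Both replicates' own lists held a window summit for 30 muscle genes (66.7%), against 29.3% of all protein-coding genes. Replicate 1 had one for 32 muscle genes (71.1%), against 39.8% of all protein-coding genes, and replicate 2 for 34 (75.6%), against 40.2%. In 8 muscle genes (17.8%) no list held a window summit: myo-2, tni-1, tni-3, tnt-4, tnc-2, ketn-1, unc-96 and unc-52. Of the 45, 6 (13.3%) had no pooled summit in window or body, namely myo-1, myo-2, tni-3, tnt-4, tnc-2 and unc-95. Neither count was made over all protein-coding genes. Only 38.4% of those had a pooled window summit, so lacking one is common.

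The typical strength of the summits was close to that at other genes. The best pooled window summit of the 34 muscle genes had a median signal of 19.7 (range 8.18 to 88.8), and that of the 7675 protein-coding genes with a summit had a median of 19.8 (range 7.62 to 740). The quartiles were 15.7 and 30 for muscle genes and 12.2 and 37.6 for all such genes, so the values of muscle genes were less spread. As a percent rank within the list, where a low value is a strong peak, the medians were 26.8 for muscle genes and 26.6 for all genes. Replicate 1 gave medians of 29.1 for muscle genes and 29.7 for all genes. In replicate 2 they were 18.1 for muscle genes and 28.1 for all genes, so the gap between muscle genes and the rest was wider in replicate 2.

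**Figure D1:**
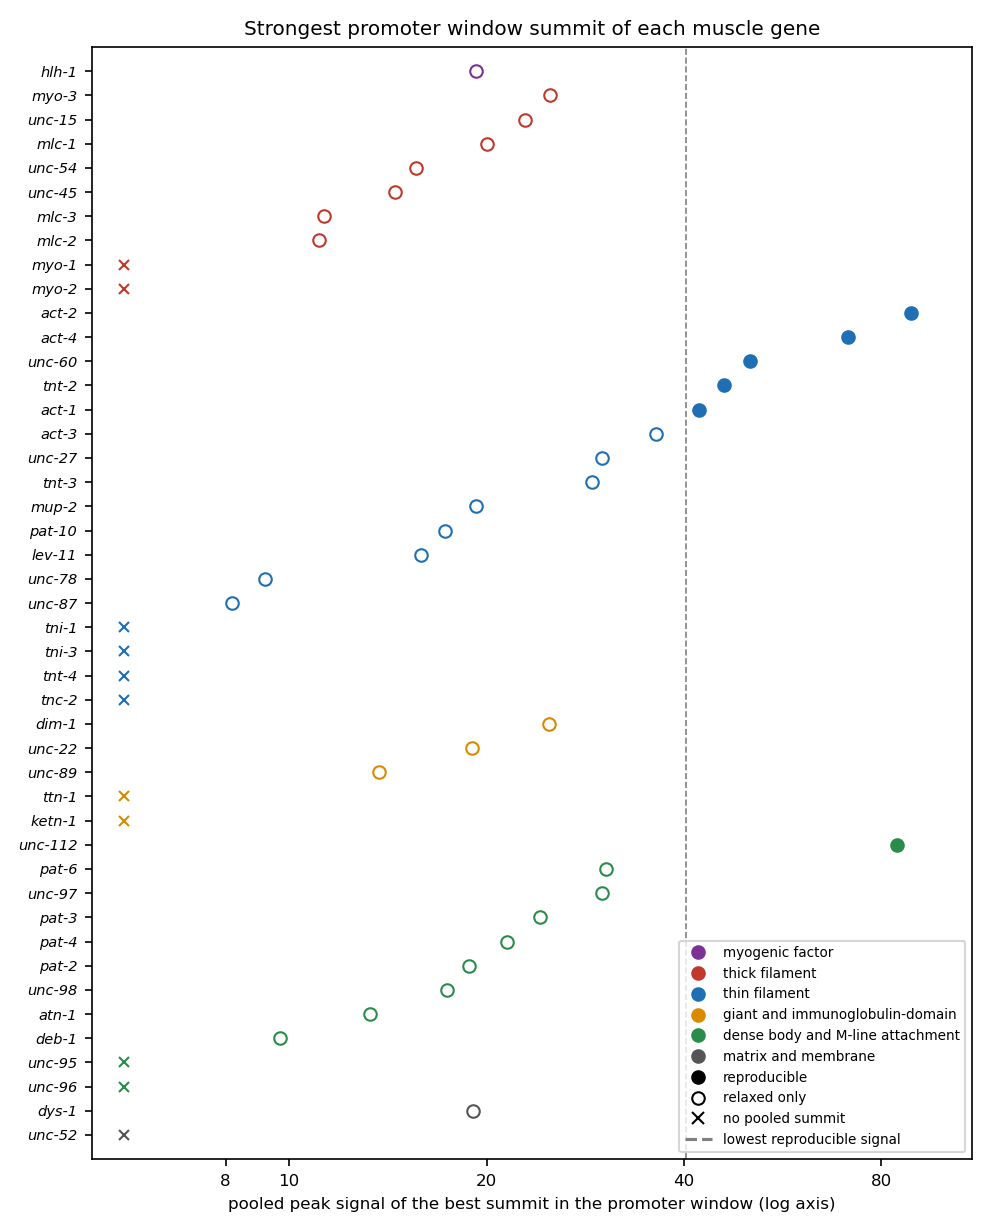
Pooled peak signal (log axis) of the strongest summit in the promoter window of each of the 45 muscle genes, ordered within role groups given by colour. Filled points are reproducible, open points are in the relaxed list alone, crosses mark genes with no pooled window summit, and the dashed line is the lowest reproducible signal, 40.3. Of the 6 filled points, 5 belong to thin filament genes and 1 to unc-112.

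Muscle genes were longer than the rest, and the upper part of their start counts was higher. Muscle genes had a median length of 4800 bp, against 2027 bp for all protein-coding genes. The median was 1 start in both, with an upper quartile of 3 for muscle genes and 2 for all genes. Shares were not compared by length. Among genes with 1 start, 20 of 27 muscle genes (74.1%) had a pooled relaxed window summit, against 31.7% of 14723 genes. Among genes with more than 1 start the counts were 14 of 18 muscle genes (77.8%), against 57.4% of 5250 genes. The gap was thus smaller where a gene had several windows. On X, where 2731 of the protein-coding genes lie, 11 of 14 muscle genes had a relaxed window summit (78.6%), against 45% of all genes there. On V the counts were 7 of 11 muscle genes (63.6%), against 27.5% of all genes on V. The counts were 7 of 9 muscle genes on I, against 46.1% of all genes there, 5 of 5 on III, against 50.6%, and 3 of 3 on IV, against 36.8%. On II, with 1 of 3 muscle genes (33.3%), against 34.9% of all genes, the share was not higher. Of the 6 muscle genes with a reproducible window summit, 4 lie on V, where 6.03% of all genes have one, and 2 on X, where 9.67% have one.

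Thin filament genes held 5 of the 6 reproducible calls. Of the 17 genes, 13 had a pooled relaxed window summit (76.5%), against 38.4% of all protein-coding genes, and 5 a reproducible one (29.4%), against 8.71% of all protein-coding genes. The median best signal of the 13 was 30. The 5 were act-2, act-4, act-1, unc-60 and tnt-2. The actins act-1, act-2 and act-3 form a cluster on V, and act-4 lies on X; all encode actin of muscle thin filaments. The 101 bases around the strong summits of the actin genes are printed so that the sites can be compared. They are ce11 bases read from the reference on the strand of each gene, 5′ to 3′. Capitals mark TTGTCT or TTGTGT, or either read on the other strand (AGACAA or ACACAA), which are the letters of a site described for SEM-4.
act-2 (minus strand, chrV:11078525-11078625): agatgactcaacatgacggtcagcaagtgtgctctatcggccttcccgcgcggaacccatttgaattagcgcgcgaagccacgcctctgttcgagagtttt
act-1 (plus strand, chrV:11080539-11080639): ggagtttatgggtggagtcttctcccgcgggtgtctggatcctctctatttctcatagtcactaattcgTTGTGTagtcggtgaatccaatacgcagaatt
act-4, intron (plus strand, chrX:4962391-4962491): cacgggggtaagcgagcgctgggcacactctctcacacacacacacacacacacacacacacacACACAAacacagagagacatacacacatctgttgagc
act-4, first start (plus strand, chrX:4960522-4960622): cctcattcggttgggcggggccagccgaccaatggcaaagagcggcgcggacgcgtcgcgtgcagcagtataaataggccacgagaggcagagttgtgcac
act-3 (minus strand, chrV:11073497-11073597): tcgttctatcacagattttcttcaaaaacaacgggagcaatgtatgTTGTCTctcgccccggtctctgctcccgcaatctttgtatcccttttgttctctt
The act-1, act-4 intron and act-3 stretches hold the letters once each, and in the act-4 intron they lie at the end of a run of CA repeats. The act-2 stretch and that at the first start of act-4 hold none.

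The summit of act-2 was the strongest of the 50 in muscle gene windows. It lay 421 bp upstream of the start, with a pooled signal of 88.8 and pooled rank 491. The overlapping peak had a signal of 52.5 in replicate 1 (rank 556) and 38.5 in replicate 2 (rank 473), so it stood high in both lists. The summit of act-1 lay 463 bp upstream, with a pooled signal of 42.2 at rank 2276, close to the end of the reproducible list. Its peak had a signal of 24.4 in replicate 1 (rank 2811) and 19.9 in replicate 2 (rank 2028). The genes act-1 and act-2 are transcribed away from each other, with 2898 bp between their starts and 2014 bp between their summits. Each summit lies in annotated non-coding RNA genes, T04C12.18 and T04C12.24 at act-2 and T04C12.16 and T04C12.25 at act-1.

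At act-4 both annotated promoters carried a reproducible summit. One lay 434 bp upstream of the second start, in an intron of the longer transcript, with a pooled signal of 71.1 at rank 777. It had a signal of 35.9 in replicate 1 (rank 1254) and 33.7 in replicate 2 (rank 657). The other lay 49 bp upstream of the first start, with a pooled signal of 56.6 at rank 1300. Here the replicate signals were 41.6 (rank 898) in replicate 1 and 20.4 (rank 1947) in replicate 2. The order of the 2 summits differed between replicates, with the intron summit behind in replicate 1 and ahead in replicate 2. A further intron summit outside the window had a pooled signal of 30.5. It matched a peak of signal 28.5 in replicate 2 (rank 977) and no peak in replicate 1.

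The remaining actin of the cluster, act-3, fell just below the threshold. Its best window summit, in an intron 283 bp upstream of an internal start, had a pooled signal of 36.3 at rank 3022. The overlapping peak had a signal of 26.2 in replicate 1, rank 2466. In replicate 2 the pooled peak overlapped 2 peaks, a stronger one of signal 12.5 (rank 4584) and one with the nearer summit of signal 5.77 (rank 13818), and neither was among the top 2490. A reproducible summit of signal 53.2 lay 1851 bp upstream of its start and outside the window.

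**Figure D2:**
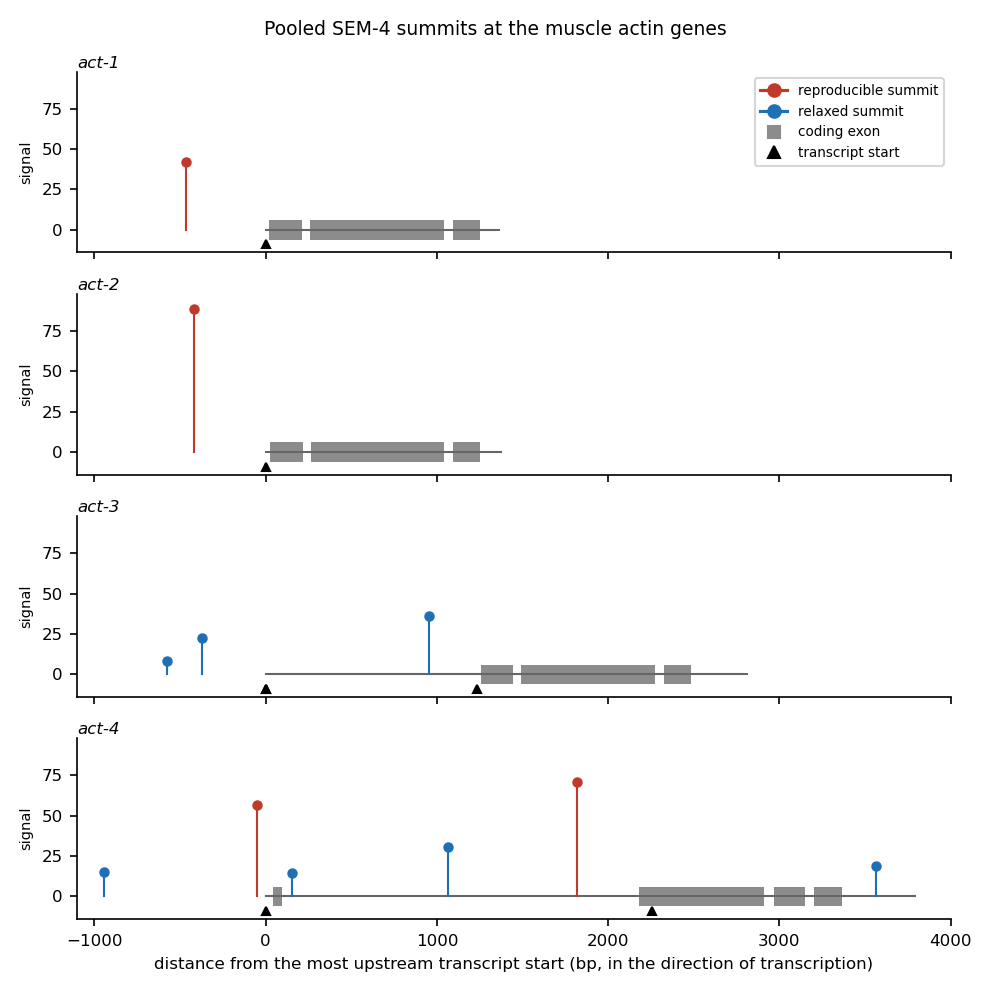
Pooled summits at the 4 muscle actin genes, with distance from the most upstream transcript start in bp along the direction of transcription on the horizontal axis and pooled signal on the vertical axis. Red stems are reproducible summits and blue stems relaxed ones, grey boxes are coding exons and triangles transcript starts; act-2 and act-1 have 1 upstream summit each, at 88.8 and 42.2, and act-4 has reproducible summits at 71.1 and 56.6.

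The actin genes are near copies of each other, and whether reads were shared between them was not tested. The coding sequences of act-1 and act-3 were 100% identical, those of act-1 and act-2 96.2%, and those of act-1 and act-4 94.3%. The peaks were not alike: the best local alignment between the strongest window peaks of any pair of actin genes covered 12 to 38 bases of 350. Of the stretches of 31 bases in the act-1 body, 87.9% occurred elsewhere in the genome, against 0% in the act-1, act-2 and act-3 peaks. In the act-4 intron peak the share was 5%, and in the peak at its first start 0.625%.

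Among the regulators of the thin filament, strong summits were found at unc-60, tnt-2 and lev-11. The summit sequences of unc-60 and tnt-2 are given for comparison with the actins, with the same capitals.
unc-60 (plus strand, chrV:1474689-1474789): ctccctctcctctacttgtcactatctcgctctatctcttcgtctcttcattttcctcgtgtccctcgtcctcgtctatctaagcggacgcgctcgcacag
tnt-2 (minus strand, chrX:8724070-8724170): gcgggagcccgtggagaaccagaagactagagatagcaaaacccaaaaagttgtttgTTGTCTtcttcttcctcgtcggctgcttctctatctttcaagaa
The gene unc-60 encodes ADF/cofilin, which severs and turns over actin filaments. Its summit lay 347 bp upstream of the start, with a pooled signal of 50.5 at rank 1630, a signal of 31.8 in replicate 1 (rank 1648) and 21 in replicate 2 (rank 1857). The same summit lies in the window of the neighbouring gene F53E2.2, so it cannot be given to one of them. It is the only reproducible muscle gene window summit that another protein-coding gene shares. The troponin T gene tnt-2 had a summit 570 bp upstream of its start, in the non-coding RNA gene F53A9.11, with a pooled signal of 46 at rank 1950. Its peak ranked 3952 in replicate 1, with a signal of 20.3, and 2161 in replicate 2, with a signal of 19.3.

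Tropomyosin, encoded by lev-11, lies along the actin filament and carries troponin. Its strong summit was not in a window but in an intron, 2719 bp from the nearest annotated start. The pooled signal was 57.7 at rank 1249, with 37.5 in replicate 1 (rank 1116) and 20 in replicate 2 (rank 2016). Among all 45 muscle genes this was the only reproducible summit in a gene body that lay outside a window. The 6 summits in the lev-11 body included another intronic one of pooled signal 26.5. Its best window summit had a signal of 15.9 and lay 519 bp upstream of an internal start.

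The remaining troponin and actin-turnover genes had weaker summits or none. The troponin I gene unc-27 had a summit 186 bp upstream, at a pooled signal of 30, with 11.5 in replicate 1 (rank 11107) and 13.1 in replicate 2 (rank 4295). The troponin T gene tnt-3 had one 460 bp upstream, at 29 pooled, with 17.7 in replicate 1 (rank 5073) and 11.8 in replicate 2 (rank 5034). The troponin T gene mup-2 had a best pooled signal of 19.3 and the troponin C gene pat-10 one of 17.3, which also lies in the window of C46H11.6. No pooled window summit was found for tni-1 and tni-3 (troponin I), tnt-4 (troponin T) or tnc-2 (troponin C). These 4 had none in either replicate's list as well. At tni-1 a reproducible summit of signal 41.3 lay 1878 bp upstream, beyond the window. The actin-interacting gene unc-78 had a best signal of 9.2, and unc-87, a calponin-like gene, had 8.18. Among the 34 genes with a pooled window summit, unc-87 alone had none in the window in either replicate's list.

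Thick filament genes had common but weak summits. Of 9 genes, 7 had a pooled relaxed window summit (77.8%), against 38.4% of all protein-coding genes. None of the 9 had a reproducible one, against 8.71% of all protein-coding genes. The median best signal was 15.6 and the highest 25. The body wall myosin heavy chain gene myo-3 held that highest value, 476 bp upstream of its start. Its peak had a signal of 16.4 in replicate 1 (rank 5876) and 5.54 in replicate 2 (rank 14554). The main body wall myosin gene unc-54 had a window summit of 15.6 in an intron 139 bp downstream of a start, with 13.1 in replicate 1 and 7.58 in replicate 2. Its strongest body summit, at 23.1, lay in the 3' UTR and inside the window of the neighbouring gene aex-5. The pharyngeal myosin genes had no pooled window summit: myo-2 had none in any list, and myo-1 had one only in replicate 2, with a signal of 3.07 at rank 26577. Such a lack is common, since 38.4% of all protein-coding genes had a pooled window summit. It is also not particular to these genes, as tni-1 and unc-52 had no window summit in any list.

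Paramyosin, encoded by unc-15, forms the core of the thick filament. Its strongest summit was intronic, 1714 bp upstream of an internal start, with a pooled signal of 31.1 at rank 3911, 17.5 in replicate 1 (rank 5193) and 13.7 in replicate 2 (rank 3976). Its best window summit had a pooled signal of 22.9 and shared its window with C15A11.2. The myosin light chain genes had best signals of 20 (mlc-1), 11.3 (mlc-3) and 11.1 (mlc-2). Of the mlc-1 window peak, 12.5% of 31-base stretches occurred elsewhere in the genome, and of the mlc-2 peak 2.81%. The effect of this on their signals was not tested. In the 3' UTR of mlc-1 a summit reached 20.9, with overlapping peaks of 11.4 and 8.77 in replicate 1 and 3.73 in replicate 2. The myosin chaperone gene unc-45 had a best signal of 14.5. The summit of hlh-1, the MyoD homologue, lay 48 bp upstream of its start at a pooled signal of 19.3, with 8.33 in replicate 1 (rank 18782) and 11 in replicate 2 (rank 5600).

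Among the attachment genes, unc-112 stood out. It encodes kindlin, a binding partner of integrin at dense bodies and M-lines. The summit lay 423 bp upstream of the start with a pooled signal of 84.6 at rank 544. Its signal was 51.8 in replicate 1 (rank 573) and 31.1 in replicate 2 (rank 784), so the rank was alike in both. A second, intronic summit 1185 bp downstream had a pooled signal of 37 at rank 2938, with 13.7 in replicate 1 (rank 8165) and 16.8 in replicate 2 (rank 2799). The window summit is printed beside that of unc-97, the attachment gene whose summit holds the SEM-4 letters at the highest signal of this group.
unc-112 (minus strand, chrV:14697027-14697127): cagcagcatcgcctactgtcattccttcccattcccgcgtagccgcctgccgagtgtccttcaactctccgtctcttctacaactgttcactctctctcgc
unc-97 (plus strand, chrX:5592672-5592772): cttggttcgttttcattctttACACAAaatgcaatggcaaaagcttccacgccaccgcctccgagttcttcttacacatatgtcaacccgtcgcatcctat
The stronger of these summits, at unc-112, lacks the letters.

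The other attachment genes lay below the threshold. Of the 11, 9 had a pooled relaxed window summit (81.8%), against 38.4% of all protein-coding genes. Only unc-112 had a reproducible one (9.09%), against 8.71%, and the median best signal was 21.5. The parvin gene pat-6 had a summit 365 bp upstream at 30.4 pooled, with 12.1 in replicate 1 (rank 10202) and 19.3 in replicate 2 (rank 2174). The PINCH gene unc-97 had one 411 bp upstream at 30 pooled, with 20.1 in replicate 1 (rank 4046) and 7.3 in replicate 2 (rank 10100). These nearly equal pooled signals came from opposite replicates, with pat-6 higher ranked in replicate 2 and unc-97 in replicate 1. At unc-97 an intronic summit reached 22.2, and a reproducible summit of 60.3 lay 1150 bp upstream, outside the window. The beta-integrin gene pat-3 had a summit at 24.1, which matched a peak in replicate 2 (signal 15, rank 3455) and none in replicate 1. The integrin-linked kinase gene pat-4 had 21.5, the alpha-integrin gene pat-2 18.8 and the M-line gene unc-98 17.4, shared with F08C6.18. The genes of alpha-actinin (atn-1, 13.3) and vinculin (deb-1, 9.67) had the lowest values. The atn-1 summit lay 645 bp upstream of an internal start. No pooled window summit was found at unc-95 and unc-96, although unc-95 had one in replicate 2 with a signal of 7.1.

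The genes of giant and membrane proteins had weak summits, in numbers that differed from gene to gene. Of the 5 giant and immunoglobulin-domain genes, 3 had a pooled relaxed window summit (60%), against 38.4% of all protein-coding genes, and 0 a reproducible one, against 8.71%. The best signals were 24.9 at dim-1, an immunoglobulin-domain gene, 19 at unc-22, which encodes twitchin, and 13.7 at unc-89, the obscurin homologue. Those of dim-1 and unc-22 lay by internal starts, 624 bp upstream at dim-1 and 7 bp downstream at unc-22. At dim-1 the replicate signals were 22.4 in replicate 1 (rank 3298) and 5.01 in replicate 2 (rank 16478), so the summit rests mainly on replicate 1. The body of unc-89, 55184 bp long, held 11 pooled summits between 7.8 and 19.1, whereas that of the titin-like gene ttn-1, 81724 bp long, held 2, at 9.36 and 8.01. The first of these lies in the window of exp-2. No pooled summit lay in a ttn-1 window, but each replicate's own list held one, with a signal of 14.1 in replicate 1 (rank 7748) and 12.3 in replicate 2 (rank 4693). Repeated sequence differed between the genes as well: 14.8% of 31-base stretches of ttn-1 occurred elsewhere in the genome, against 0.172% of those of unc-89, and its part in the low count was not tested. The kettin gene ketn-1 had 1 body summit, at 18.5. The basement membrane perlecan gene unc-52 had no window summit and 7 body summits, the strongest at 25.9 in an intron, with 21.3 in replicate 1 (rank 3625) and 6 in replicate 2 (rank 13125). The dystrophin gene dys-1 had 4 body summits. The strongest, at 19.1, was also its window summit and lay 121 bp upstream of an internal start.

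**Figure D3:**
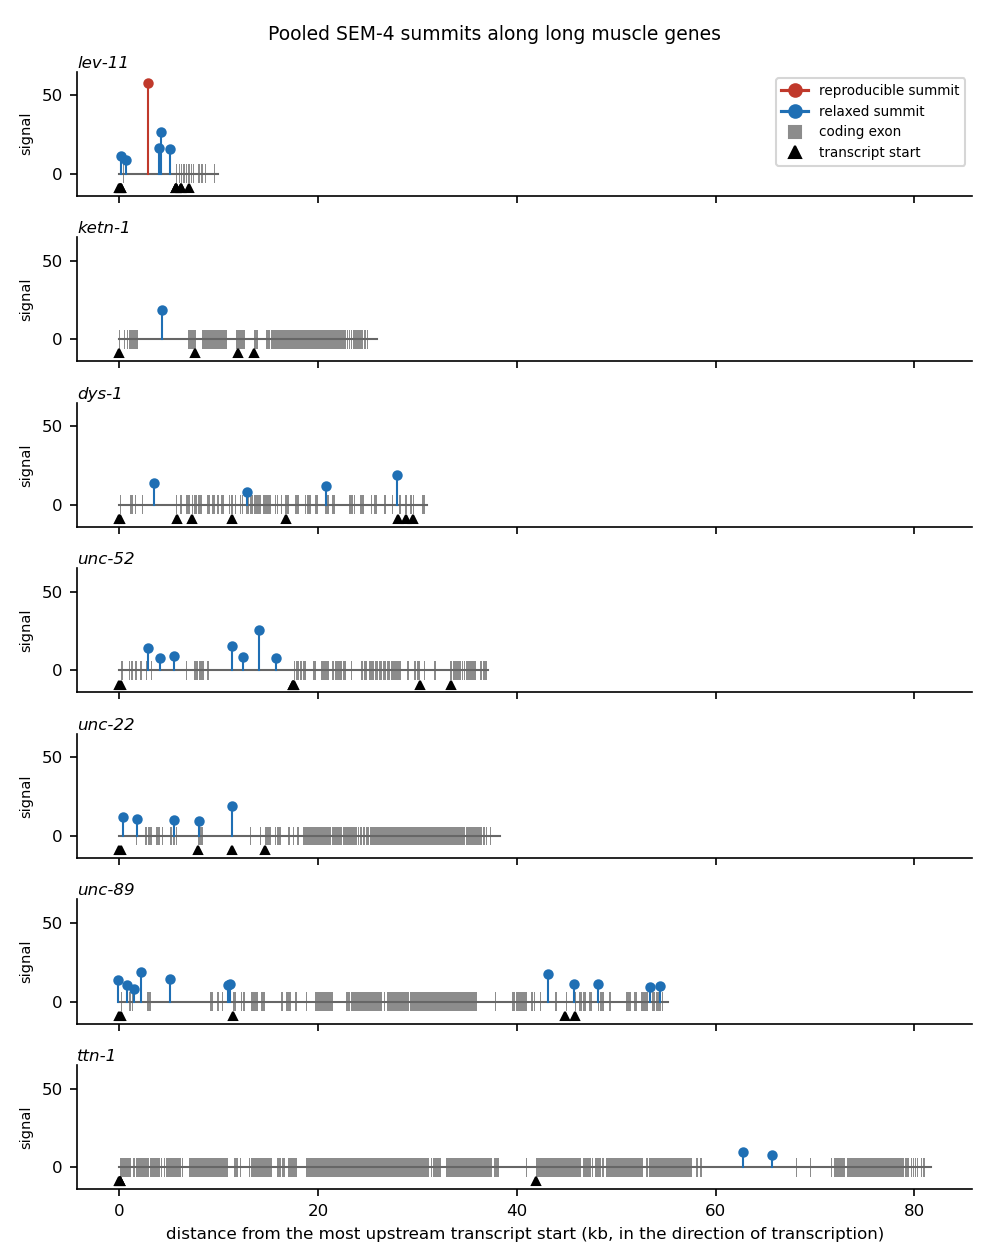
Pooled summits along 7 long muscle genes, with distance from the most upstream transcript start in kb along the direction of transcription on the horizontal axis and pooled signal on the vertical axis. Red stems are reproducible and blue stems relaxed summits, grey boxes are coding exons and triangles transcript starts; lev-11 holds the only reproducible summit, at 57.7, and unc-89 the most summits.

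Over gene bodies as a whole, summits were more frequent per gene and, over the summed length, less frequent per kb. A pooled relaxed summit lay in the body of 30 of 45 muscle genes (66.7%), against 33.3% of all protein-coding genes. A reproducible summit lay in the body of 2 muscle genes (4.44%), lev-11 and act-4, against 2.77% of all protein-coding genes. Per kb of body there were 0.179 pooled summits in the muscle genes (80 in 447 kb), against 0.257 in all protein-coding genes. In promoter windows the order was turned round, with 0.548 per kb for muscle genes and 0.389 per kb for all protein-coding genes. Long genes weigh most in the body value: ttn-1 held 2 summits in 81724 bp, unc-89 11 in 55184 bp and unc-22 5 in 38311 bp. Further, unc-52 held 7 in 37136 bp, dys-1 4 in 30934 bp and ketn-1 1 in 25922 bp. The lower body values thus need not hold for the shorter muscle genes. Of the 80 muscle gene body summits, 50 lay in introns (62.5%), against 64% of the summits of all protein-coding genes. Coding exons held 15 of the 80 (18.8%), against 21.2% for all genes, although they made up 49.7% of the body length of muscle genes and 39.6% of that of all genes. The density in coding exons was 0.0675 per kb in muscle genes and 0.138 per kb in all genes. In introns it was 0.258 per kb in muscle genes and 0.318 per kb in all genes.

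**Figure D4:**
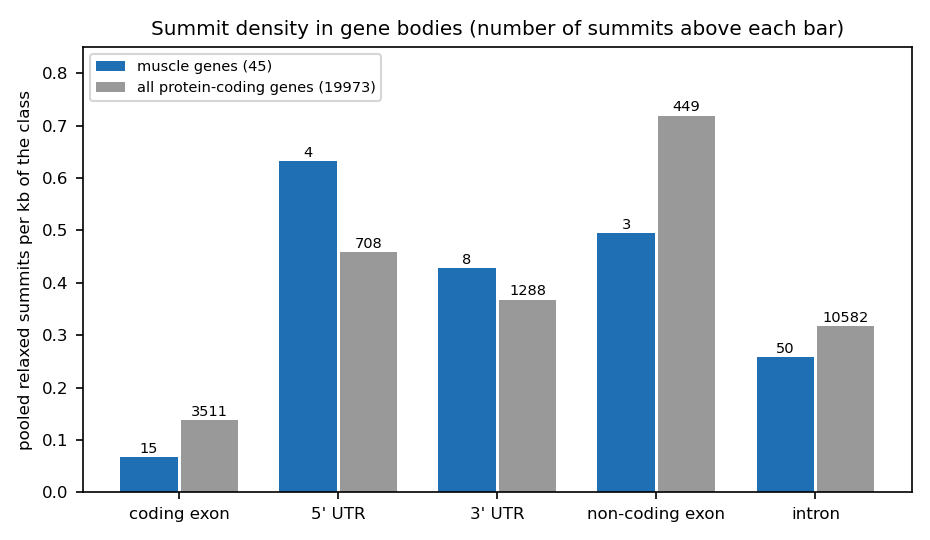
Pooled relaxed summits per kb of each part of the gene body in the 45 muscle genes (blue) and in all 19973 protein-coding genes (grey), with the number of summits above each bar. Coding exons show 0.0675 per kb in muscle genes and 0.138 per kb in all genes; the muscle gene bars for UTRs and non-coding exons rest on 3 to 8 summits.

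Muscle gene windows held 50 pooled summits in all. Of these, 42 lay upstream of the nearest start (84%), against 85.8% for all protein-coding genes, and 22 lay 200 to 600 bp upstream (44%), against 34.9% for all protein-coding genes. Of the 7 reproducible ones, 6 lay in that range (85.7%), against 41.4% of the reproducible window summits of all protein-coding genes. Only the summit at the first start of act-4 was nearer. The other 6 lay 347 to 570 bp upstream, inside the range. This range was not among the planned comparisons, and no other range is given. The shares therefore do not show a preferred position. Annotated non-coding RNA exons held 3 of the 7, those of act-1, act-2 and tnt-2, against 8.28% of all 1376 reproducible window summits. Over all 50 muscle gene window summits the count in non-coding exons was 6 (12%), against 4.05% of all 9841 window summits. Both replicates had an overlapping peak for 39 of the 50 (78%), against 60.7% of all window summits. Replicate 1 alone matched 5, replicate 2 alone matched 5, and 1 matched neither.

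**Figure D5:**
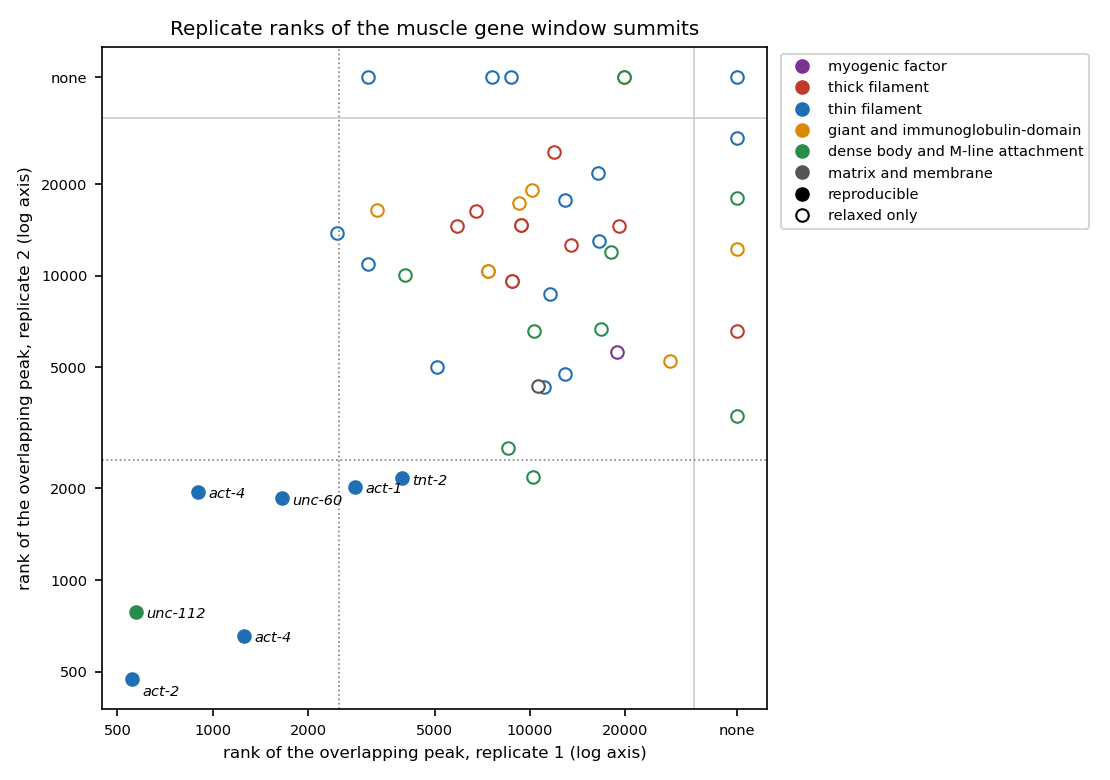
Rank of the overlapping peak in replicate 1 (horizontal) and replicate 2 (vertical), both on log axes, for the 50 pooled summits in muscle gene windows; colours give the role group, filled points are reproducible and labelled, points in the outer bands had no overlapping peak in that replicate, and dotted lines mark rank 2490. All 7 filled points have a rank number under 2490 in replicate 2, while act-1 and tnt-2 have one above it in replicate 1; neighbouring pooled summits that overlap 1 replicate peak share a point.

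Summit sequences of muscle genes were richer in G and C than those of other windows. The median G+C content of the 101 bases was 45% for the 50 muscle gene window summits and 38.6% for all 9841 window summits. For the reproducible ones the medians were 53.5% in the 7 muscle gene summits and 46.5% in all 1376. Sequences matching TTGTCT or TTGTGT on either strand were found in 12 muscle gene summits (24%), against 15.2% of all window summits. Of the 7 reproducible muscle gene summits 3 held them, namely act-1, tnt-2 and the intron of act-4, against 18.1% of all reproducible window summits. The sequence CAGCTG, the letters usually given for MyoD-type factors such as HLH-1, occurred in 0 of the 50, against 2.59% of all window summits. Its looser form CANNTG, of which CAGCTG is one case, occurred in 20 of the muscle gene summits (40%), against 33.7% of all. ATATT occurred in 6 (12%), against 27.8% of all, and GAGAGA in 11 (22%), against 14.7% of all. Within 25 bp of the summit the gap was small for ATATT, 12% in muscle gene summits and 14.4% in all, and for CANNTG, 18% in muscle gene summits and 18.5% in all. All counts include both strands, and a match is a run of letters and not a shown binding site. The shares were not adjusted for the difference in G+C content.

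Beyond the 45, 7 further lists of 73 genes covered other muscle genes and the basement membrane and epidermal structures that muscle attaches to. A pooled relaxed window summit was found for 49 of the 73 (67.1%), against 38.4% of all protein-coding genes, and a reproducible one for 7 (9.59%), close to the 8.71% of all protein-coding genes. By list, the relaxed share ran from 30% for basement membrane genes to 88.9% for dystrophin complex genes. Among 9 further filament genes, 6 had a relaxed and 3 a reproducible summit, and these were the strongest in the 7 lists and the 45 genes. The BAG-domain co-chaperone gene unc-23 had a pooled signal of 154 at rank 120, 62 bp upstream, with 104 in replicate 1 (rank 102) and 49.2 in replicate 2 (rank 243). The actin capping protein gene cap-2 had 153 at rank 125, shared with gmps-1, with 95.9 in replicate 1 (rank 127) and 55.8 in replicate 2 (rank 175). The other capping subunit gene, cap-1, had 96.5 at rank 409, shared with D2024.4, with 76.7 in replicate 1 (rank 219) and 20.9 in replicate 2 (rank 1860). All 3 exceeded act-2, the strongest of the 45.

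The other lists held 0 to 2 genes with a reproducible window summit each; beside the 8.71% of all protein-coding genes these are small counts, and the differences were not tested. Of 10 further dense body and M-line genes, 7 had a relaxed and 1 a reproducible window summit, at the LIM-domain gene lim-9 (69.9 pooled, 39 in replicate 1 and 33.5 in replicate 2). Of 9 dystrophin complex genes, 8 had a relaxed and 1 a reproducible one, at the acetylcholine transporter gene snf-6 (44.3 pooled, 33 in replicate 1 and 12.3 in replicate 2), shared with mtg-1. Of 19 genes of muscle excitation and calcium, 15 had a relaxed and 2 a reproducible one. These were the calcium channel subunit gene unc-36 (53.4 pooled, 41.3 in replicate 1 and 18.4 in replicate 2) and the potassium channel gene sup-9 (47 pooled, 28.4 in replicate 1 and 17.6 in replicate 2), shared with nspf-1. Of 7 muscle transcription factor genes, 3 had a relaxed window summit and 0 a reproducible one, with a highest signal of 15.6. The myogenic factor genes unc-120 and hnd-1 had none. Of 10 basement membrane genes 3 had a relaxed summit, and of 9 genes of epidermal fibrous organelles, which link muscle to cuticle, 7 had one; neither list had a reproducible summit.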

How the data were processed

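The values were the authors' deposited peak lists on ce11, from eGFP ChIP-seq of 2 replicates of L2 larvae with a library size range of 150 to 350. Column 7 of each deposited list is a signal value per peak and column 9 the −log10 of a q-value, as in the narrowPeak format that the deposited text files name. For the aligner, the peak caller and the threshold, names and versions are not given in the sources used here. Control reads were not analysed. The labels do not say how each replicate was grown, so differences between replicates may be technical.

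Genes came from Ensembl release 115 on WBcel235, whose chromosome lengths hold every peak, and sequences from the RefSeq copy of that assembly. Classes were given in the order coding exon, 5' UTR, 3' UTR, non-coding exon, intron, intergenic. Peaks of different lists were matched by at least 1 shared bp, taking the nearest summit. No test was run: shares are descriptions beside all protein-coding genes. Genes named in full are those with a reproducible summit, the 12 strongest in windows and the 8 strongest in bodies outside them, and up to 4 reproducible genes per further list. The members and lists were chosen with earlier results of these data known. The alternatives were other windows, starts, list sizes, overlap rules and each replicate alone. Python 3.11.15, numpy 2.4.6, pandas 2.3.3 and Biopython 1.88 were used, and lookups were tested on simulated data.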

Additional observations from a re-analysis of the deposited data

How the results depend on the processing

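No paired analysis was possible because there is 1 group. Of 50 alternative values, 20 moved, meaning a count by over 1.5 times, or another value by more than the SD between the replicates. Body density was the same in each replicate, 0.204 per kb, so any change in it counted as moved. The count of muscle genes with a reproducible window summit, 6, became 3 (6.67%) with the higher-signal 1245 peaks, against 4.92% of all protein-coding genes, and 11 (24.4%) with the top 5000 pooled peaks, against 14.4%. With the top 2490 peaks of replicate 1 it was 5 (11.1%), against 8.39% of all protein-coding genes. The top 2490 peaks of replicate 2 gave 7 (15.6%), against 8.46%. Narrowing the window to 500 bp before and 100 bp after a start gave 5 (11.1%), against 6.77%. With 2000 bp upstream it was 9 (20%), adding unc-97, act-3 and tni-1, against 11.3% of all protein-coding genes. The relaxed count, 34, ranged from 28 to 38, and with 500 bp upstream it was 62.2%, against 29.4% of all protein-coding genes. Counting a summit only for the gene with the nearest start left 33 relaxed and 6 reproducible, against 33.3% and 6.54% of all protein-coding genes.

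The median best signal, 19.7, was 25 with 2000 bp upstream and 17.4 with genes lacking a summit set at 0. The count with a reproducible body summit, 2, was 1 with the higher-signal peaks, 5 with the top 5000 pooled peaks and 1 with windows removed from bodies. Body density, 0.179 per kb, was 0.155 without windows, 0.094 in the top 15000 pooled peaks and 0.204 in each replicate's own list. The intronic share, 62.5%, was 66.2% with introns placed before non-coding exons, and 64.8% to 68.1% in single replicates. The median percent rank of 26.8 was 18.1 in replicate 2 and 29.1 in replicate 1. Matches to the SEM-4 letters numbered 9 within 25 bp of the summit (18%), against 7.49% of all window summits, and 21 within 100 bp (42%), against 28.2%. ATATT numbered 6 and 18 in these windows, GAGAGA 7 and 18, CANNTG 9 and 29, and CAGCTG 0 in both.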

Other observations

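Of the 50 muscle gene window summits, 43 were not in the reproducible list, against 8465 of 9841 over all windows. Of the 43, 32 (74.4%) had an overlapping peak in both replicates, against 54.4% of the 8465. Muscle genes lay nearer to a reproducible summit, with a median distance of 9899 bp from a start, against 17558 bp for all protein-coding genes. The distance was the smallest over all starts of a gene and was not adjusted for their number. Any reproducible summit counted, including those in windows of other genes, such as rps-4 for deb-1. Depth, control signal and expression were not used here, and the lists cannot separate weak binding in many cells from strong binding in few. With 1 group there is no untagged or mutant sample to set the peaks against.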
